A study of Caenorhabditis elegans with 4 samples.

Results

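H3K4me3, trimethylation of histone H3 at lysine 4, is laid down by SET1-type methyltransferases and typically marks the starts of transcribed genes. In Caenorhabditis elegans genes lie close together, so that peaks of this mark often follow each other at short distances along a chromosome. The worm chromosomes have central regions rich in active genes and distal arms rich in repeats, and the arms of the autosomes contact the nuclear membrane. On X the study found such contact for the left end, whereas the right end was only weakly associated and had fewer repeats. The membrane protein LEM-2 sits at the inner face of the nuclear envelope, and the regions that bind it in embryos are called LEM-2 subdomains, separated by gaps. Isolated H3K4me3 peaks, those far from any other peak, are described here across the chromosomes and the LEM-2 landscape.

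The members are the replicate 1 peaks whose edge-to-edge distance to the previous peak and to the next peak on the chromosome was at least 30000 bp. The first and last peak of each of the 6 chromosomes were left out. The rule found 269 isolated peaks among the 3811 peaks of replicate 1, or 7.06%. The other 3530 peaks that the rule could have chosen consisted of 1306 peaks with a single neighbour within 30000 bp and 2224 with both neighbours within 30000 bp. The rule used only the chromosome, start and end of each replicate 1 peak. Replicate 2 did not enter the choice, and the same rule found 313 isolated peaks among its 3487 peaks.

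The data were ChIP-seq peak lists from mixed-stage embryos (MXemb) of the wild-type strain N2, precipitated with a monoclonal antibody against H3K4me3 from Wako, with 1 list for each of 2 biological replicates. No mutant or treatment was part of the series, and each list represents the mixture of cells in the embryos. Each replicate had an input library, and neither of the 2 inputs was analysed here. The authors called the peaks with MACS at a p-value cutoff of 1e-05, and the score of a peak is its p-value as -log10, multiplied by 10. The lists hold no read counts, so the depth behind a peak is unknown here, and the study's methods name its replicate 1 as the more deeply sequenced library. The study lists its H3K4me3 data under another series, so the replicates were matched to its methods by number alone. Scores pile up at 3100, called the ceiling here, which 33.4% of all replicate 1 peaks reached or passed. It is no strict maximum, as scores went up to 3233.06 in replicate 1 and 3227.04 in replicate 2. How the caller wrote scores from 3100 up was not examined, so their order is not read as strength. A score depends on the depth of its library, so levels are set against each other within a list, and values of both lists are given side by side as a description. The lists name no genome build. The study placed its H3K4me3 reads and its LEM-2 regions on ce4, and the coordinates below are taken as ce4 on that basis, with the same doubt, counted from 1. No gene annotation of that build was used here, so genes at the peaks are not named.

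Isolated peaks are sites of 1 library and not replicates of a condition, so no p-values are given. Shares have exact Clopper-Pearson 95% intervals, which cover counting error only and treat peaks as independent, and the spread between the 2 replicates is given as mean ± SD.

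The members had a median distance of 40642 bp to their nearer neighbour, against 4871 bp for the other peaks. These values are those the rule used. The distance to the previous peak ranged from 30058 to 518711 bp and that to the next peak from 30751 to 547364 bp. Of the 269 members, 132 were under 40000 bp from their nearer neighbour, 75 were at least 50000 bp from both neighbours and 11 at least 100000 bp. The longer empty side was the previous one for 141 members. Thus 194 of the 269 had a neighbour closer than 50000 bp, and a small group stood in very empty surroundings.

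The peaks just inside and just outside the cutoff were separated by small differences in spacing. Inside it were the peak on chromosome II from 1819599 to 1821583, with 30058 bp to its nearer neighbour, the peak on chromosome X from 17512430 to 17515450, with 30166 bp, and a peak on the right arm of chromosome I with 30175 bp. Outside it were a neighbouring pair on chromosome III, from 3035199 to 3036814 and from 3066788 to 3071547, which lay 29973 bp apart. The peak on chromosome V from 20085165 to 20087568 was also outside, at 29833 bp.

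**Figure D1:**
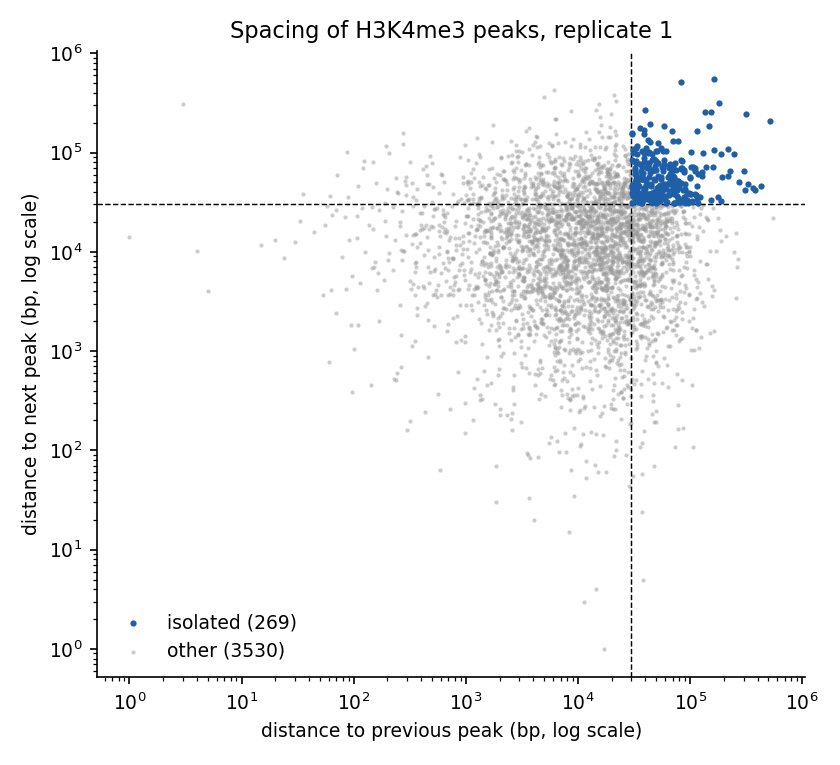
Distance from each replicate 1 peak to the previous peak (x axis, bp, log scale) and to the next peak (y axis, bp, log scale), with the 269 isolated peaks in blue and the 3530 others in grey. The dashed lines mark 30000 bp on each side, and the isolated peaks fill the corner above both, reaching 518711 and 547364 bp.

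The empty stretches beside the members made up a large part of the genome between peaks. Every member has by rule at least 30000 bp free on both sides, so large values are built in here. The 269 members were flanked by 451 distinct stretches without a replicate 1 peak. These covered 32.0 Mb, or 36.1% of the 88.7 Mb that lay between neighbouring peaks. Replicate 1 had 925 stretches of 30000 bp or more, and 48.8% of them had an isolated peak on at least 1 side. The members themselves covered 0.774 Mb, which was 6.83% of the bases in peaks.

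The 11 members at least 100000 bp from both neighbours lay on chromosome V, which held 8, and chromosome IV, which held 3. All 11 were on chromosome arms, and the midpoint of 10 of them fell within LEM-2 subdomains. Of all 269 members 76.2% were on arms and 54.6% in subdomains, and of all replicate 1 peaks 47.3% and 30.0%. The 11 were picked by the distances that the rule used, so territory with sparse peaks was favoured. The member from 3194302 to 3196104 on the left arm of chromosome V was the most remote by the replicate 1 list, with 316082 bp without a peak before it and 246379 bp after it. It was 1803 bp wide with a score of 470.70 in replicate 1, and 1726 bp wide with a score of 144.20 in replicate 2. Replicate 2 had a further peak on its right, so that its counterpart was 316082 bp from the previous and 60371 bp from the next peak of that list. Its surroundings were therefore less empty in replicate 2, although the counterpart was still isolated.

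The next most remote member, on the right arm of chromosome IV from 16167793 to 16171427, had 518711 bp before it and 209411 bp after it. It was 3635 bp wide, and its replicate 2 counterpart was 2972 bp wide with 519478 and 209538 bp to its neighbours. The member on chromosome V from 16964441 to 16966697 bordered the longest empty stretch beside any member, 547364 bp, and had 163103 bp on its other side. Replicate 2 gave 547370 and 168151 bp at the same place. Its score was at the ceiling of 3100 in replicate 1 and 1087.02 in replicate 2. On these 2 members the replicate lists gave nearly the same spacing.

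The member outside a subdomain was in a medium gap of chromosome IV, from 16654584 to 16657965, with a score of 3100 in both replicates and with 148442 and 186720 bp to its neighbours. A pair of the most remote members had no replicate 2 counterpart. They were adjacent peaks on the left arm of chromosome V, from 2254568 to 2256257 and from 2421251 to 2422662, with replicate 1 scores of 185.12 and 211.94. These are low scores within replicate 1, where the median over the members was 1385.5. Both lay inside the same LEM-2 subdomain, 126011 and 250664 bp from its nearer edge by their midpoints.

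Isolated peaks were concentrated on the chromosome arms, whose edges the study had set by eye from its LEM-2 signal. Of the 269 members, 205, or 76.2% (95% interval 70.7 to 81.2%), had their midpoint on an arm, against 44.9% (43.3 to 46.6%) of the 3530 other peaks and 47.3% of all replicate 1 peaks. In replicate 2 the share was 71.2% (65.9 to 76.2%) of isolated peaks and 45.5% (43.8 to 47.3%) of other peaks. The difference was 31.3 percentage points in replicate 1 and 25.7 in replicate 2, or 28.5 ± 3.92 (SD, n = 2), larger than the spread between replicates. Because the rule picks wide spacing, it picks more readily where peaks are sparse. All replicate 1 peaks had a density of 30.4 per Mb on arms and 49.1 per Mb in centres, whereas isolated peaks had 3.45 per Mb on arms and 1.56 per Mb in centres.

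The left and right arms contributed similarly. The left arms held 114 members, which were 11.3% of their peaks, and the right arms 91, which were 11.7%. The centres held 64 members, or 3.19% (2.46 to 4.05%) of their peaks. Members lay a median of 3.20 Mb from the nearer chromosome end, and the closest was 0.105 Mb from it.

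Chromosome V carried the most members. It held 72 of the 269, or 26.8%, against 12.5% of the other peaks, and 14.0% (11.1 to 17.3%) of its own peaks were isolated. The share of peaks that were isolated was 8.53% on chromosome IV (50 members), 8.06% on X (51), 7.91% on II (50), 3.78% on I (28) and 2.59% on III (18). The intervals of IV, X and II overlapped each other, as did those of I and III. Replicate 2 gave 17.8% on V, 10.3% on IV, 9.52% on II, 9.27% on X, 5.56% on I and 4.43% on III. Chromosome V thus came first and I and III last in both lists, and the order of II, IV and X was not resolved. The rule picks more readily where peaks are sparse. Chromosome V, the longest in the study, held the fewest replicate 1 peaks the rule could choose, 513. Chromosomes I and III held the most, 740 and 695. Peak densities per chromosome were not computed, and how much of the order goes with them was not tested.

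On each of the 6 chromosomes and in both replicates, the share of peaks that were isolated was higher on the arms than in the centre, with intervals that overlapped on V and X in replicate 2. Chromosome V had 18.9% on its arms and 7.37% in its centre in replicate 1. Chromosome III, with the fewest members, had 4.94% on its arms and 0.539% in its centre, where only 2 of 371 peaks were isolated. The X chromosome differed from the autosomes in where its members lay. On X, 26 of 51 members were in the centre, and 49.0% (34.8 to 63.4%) were on arms, whereas 82.6% (76.9 to 87.4%) of the 218 autosomal members were on arms. Other peaks were also less often on arms on X, at 27.8%, than on autosomes, at 48.3%.

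**Figure D2:**
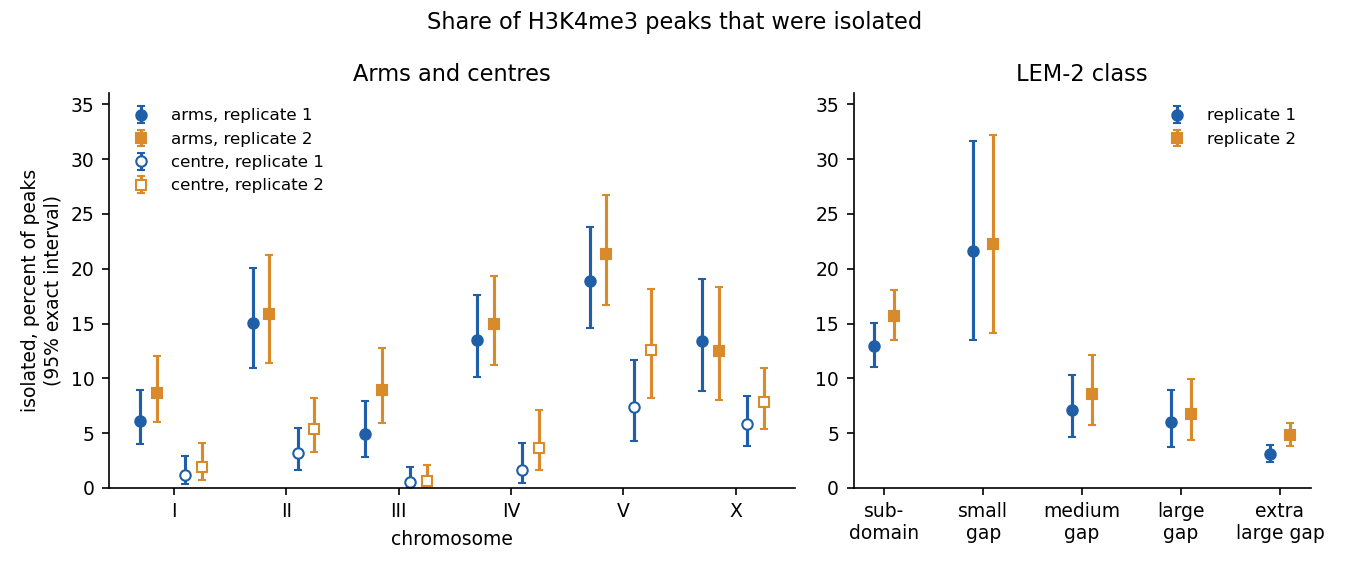
Share of peaks that were isolated (y axis, percent of the peaks the rule could choose, with exact 95% intervals) by chromosome on arms and in centres (left) and by LEM-2 class (right), for replicate 1 (blue circles) and replicate 2 (orange squares). Filled symbols on the left are arms and open symbols centres, and the arm share is above the centre share on every chromosome. On the right, small gaps are highest, at 21.6% in replicate 1, and extra large gaps lowest, at 3.04%.

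Isolated peaks were found more often than other peaks in LEM-2 subdomains. Of the 269 members, 147, or 54.6% (48.5 to 60.7%), had their midpoint in a subdomain, against 28.0% (26.5 to 29.5%) of other peaks and 30.0% of all replicate 1 peaks. In replicate 2 the shares were 51.4% (45.8 to 57.1%) and 27.4% (25.8 to 29.0%). The difference was 26.7 percentage points in replicate 1 and 24.05 in replicate 2, or 25.4 ± 1.84 (SD, n = 2). The share was graded with spacing, at 54.6% for isolated peaks, 38.6% for peaks with a single neighbour within 30000 bp and 21.8% for peaks with both. These classes are cut on the distances of the rule, which picks more readily where peaks are sparse. All replicate 1 peaks had a density of 23.0 per Mb in subdomains and 47.8 to 152.6 per Mb in the gap classes. How much of the difference goes with this density was not tested.

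The difference was smaller on arms alone and outside the central gaps. The study set its arm and centre edges by eye from the same LEM-2 signal that gave the subdomains. Arms and subdomains are therefore not separate kinds of location, and few subdomain peaks can lie in centres. Of all replicate 1 peaks in centres, 10 of 2008 had their midpoint in a subdomain. Outside the extra large gaps, which lie mostly in the chromosome centres, 69.3% (62.7 to 75.5%) of isolated peaks and 57.6% (55.2 to 60.0%) of other peaks were in subdomains. The difference there was 11.7 percentage points, against 26.7 over all peaks. On arms alone the shares were 71.2% (64.5 to 77.3%) and 61.7% (59.3 to 64.1%) in replicate 1, and 72.2% (65.8 to 78.0%) and 59.8% (57.2 to 62.4%) in replicate 2. A single member had its midpoint in a subdomain in a chromosome centre. On autosomes 62.4% of members and 32.3% of other peaks were in subdomains, and on X 21.6% (11.3 to 35.3%) and 6.19% (4.37 to 8.46%). On X the shares in replicate 2 were 13.2% (5.48 to 25.3%) and 7.32% (5.23 to 9.91%), whose intervals overlap.

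**Figure D3:**
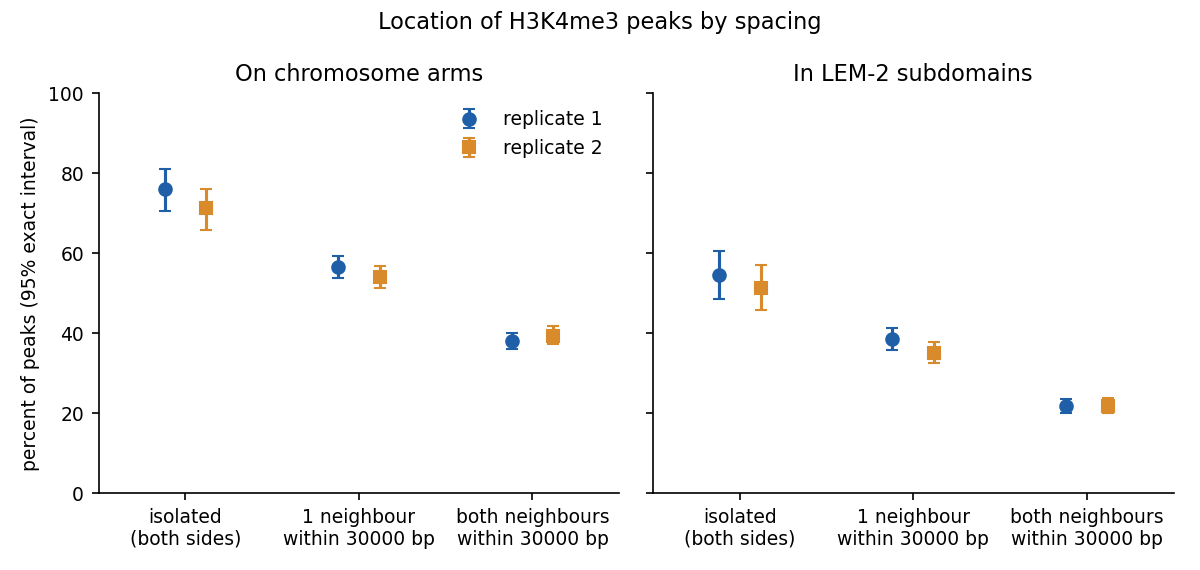
Share of peaks with their midpoint on chromosome arms (left) and in LEM-2 subdomains (right), in percent with exact 95% intervals, for isolated peaks, peaks with a single neighbour within 30000 bp and peaks with both neighbours within 30000 bp. Circles are replicate 1 and squares replicate 2. Both shares are highest for isolated peaks, at 76.2% and 54.6% in replicate 1, and lowest for peaks with both neighbours near.

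The share of peaks in LEM-2 subdomains was also taken over finer classes of the distance to the nearer neighbour. In replicate 1 it was 21.7% for peaks under 1000 bp from their nearer neighbour, 23.1% from 1000 to 3000 bp, 26.1% from 3000 to 10000 bp and 37.4% from 10000 to 30000 bp. Among members it was 52.6% (45.3 to 59.8%) from 30000 to 50000 bp and 60.0% (48.0 to 71.1%) beyond. In replicate 2 the 6 values were 26.0%, 23.2%, 24.9%, 33.7%, 51.1% and 52.2%. The share thus rose through all classes in replicate 1, whereas in replicate 2 it showed no gradient below 10000 bp. In both lists it was higher from 10000 to 30000 bp than below and higher again from 30000 bp, and no further rise beyond 50000 bp was resolved. The lower density of peaks in subdomains bears on these distance classes as well.

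The 147 members in subdomains were distributed over 86 of the 360 subdomains. Of these subdomains, 51 held a single member and 16 held 3 or more, with at most 6 in a subdomain. For 20 of the 147 members, or 13.6%, no other peak of replicate 1 had its midpoint in the same subdomain. Of all 1145 replicate 1 peaks in subdomains, 89 were alone in this way. The spacing that the rule requires favours such members. Members lay a median of 85214 bp inside the nearer subdomain edge, against 76493 bp for the 988 other peaks in subdomains. The shares more than 5000 bp inside were 87.8% and 88.0%. The position within a subdomain therefore did not separate isolated peaks from other subdomain peaks at this level.

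The members farthest inside subdomains were on chromosomes I, IV and V. The deepest, on the left arm of chromosome I, was 604124 bp from the nearer edge, with a score of 420.32 in replicate 1 and 94.78 in replicate 2, and another member of the same arm was 563065 bp inside. On chromosome IV the member from 1238655 to 1240580 was 581414 bp inside and the member from 1176880 to 1179092 was 519783 bp inside. Both reached the score ceiling of 3100 in replicate 1, with replicate 2 scores of 902.12 and 2038.18. On chromosome V the member from 16964441 to 16966697, described above for its long empty flank, was 562850 bp inside. All 5 of these deepest members had a counterpart in replicate 2, and 3 of them were at the score ceiling in replicate 1.

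The remaining 122 members were in gaps, which the study grouped by size into 4 classes. Small gaps held 19 members, medium gaps 25, large gaps 21 and extra large gaps 57, of which 24 were on X. Among all peaks in a class, the isolated share was 21.6% (13.5 to 31.6%) in small gaps, 13.0% (11.1 to 15.0%) in subdomains, 7.10% in medium gaps, 5.97% in large gaps and 3.04% (2.31 to 3.93%) in extra large gaps. Replicate 2 gave the same order, from 22.2% in small gaps and 15.7% in subdomains to 4.79% in extra large gaps. The intervals of small gaps and subdomains overlapped in both replicates.

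Small gaps are interruptions between subdomains that are shorter than the required spacing, so that a member in a small gap is necessarily the only peak midpoint there. The 19 members took 19 of the 84 small gaps that held a peak midpoint, and 13 of them also touched a neighbouring subdomain. They lay on chromosomes V, IV and II, with 9, 7 and 3 members. Their density was 32.9 per Mb of small gap, against 2.96 isolated peaks per Mb of subdomain. The density of all replicate 1 peaks also differed in that direction, with 152.6 per Mb of small gap and 23.0 per Mb of subdomain. A replicate 2 peak overlapped 18 of the 19, against 68 of 69 other small-gap peaks.

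On the left arm of chromosome V the small-gap member from 3442484 to 3455245 was the widest isolated peak, at 12762 bp. It had 246379 bp without a peak before it and 96956 bp after it. In replicate 2 it was divided into 2 peaks, the larger of them 6837 bp wide. On the right arm of chromosome V, the small-gap member from 15393164 to 15397719 was 4556 bp wide in replicate 1 and 3510 bp in replicate 2, with a score of 3100 in both. It lay 130345 and 99661 bp from its neighbours. The small-gap member on chromosome IV from 15645721 to 15649081 had 83672 bp before it and 518711 bp after it, and 84167 and 519478 bp in replicate 2.

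The small-gap member on chromosome IV from 2994800 to 2999155 was 4356 bp wide but had a score of only 70.61 in replicate 1, at percentile 3.46 of that list, whereas its 4226-bp counterpart scored 755.65 in replicate 2, at percentile 56.2. It was singled out after its values were seen. Below the ceiling, replicate 2 gave the higher score for 7 of 150 overlapped members and for 90 of 1854 other overlapped peaks, or 4.67% and 4.85%.

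Isolated peaks were of nearly the same width as other peaks. The median was 2283 bp in members, with the middle 50% of peaks between 1772 and 3341 bp, and 2391 bp in other peaks, with the middle 50% between 1924 and 3346 bp. In replicate 2 the medians were 2123 and 2206 bp. The difference was -108 bp in replicate 1 and -83.0 bp in replicate 2, or -95.3 ± 17.3 bp (SD, n = 2). It was larger than the spread between replicates but small beside the spread among peaks. Edges enter the distances that define the members, so width is not fully independent of the rule.

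Widths of at least 5000 bp were found in 29 members, or 10.8% (7.34 to 15.1%), and in 10.1% (9.08 to 11.1%) of other peaks. In replicate 2 the shares were 3.83% (2.00 to 6.60%) and 5.76% (4.97 to 6.63%). The 29 wide members included 9 on chromosome V, 8 on II and 7 on X, and 10 of them were in subdomains. Of all 269 members, 72, 50 and 51 lay on these chromosomes and 147 in subdomains. After the member of 12762 bp, the widest were 10104 bp on the left arm of X from 3463372 to 3473475, 8836 bp in the centre of X from 12079674 to 12088509, 8375 bp on X from 3897992 to 3906366 and 7685 bp on V from 4961161 to 4968845. The X member of 10104 bp was also divided into 2 peaks in replicate 2. The other 3 each matched a single replicate 2 peak, of 8084, 5327 and 6875 bp.

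**Figure D4:**
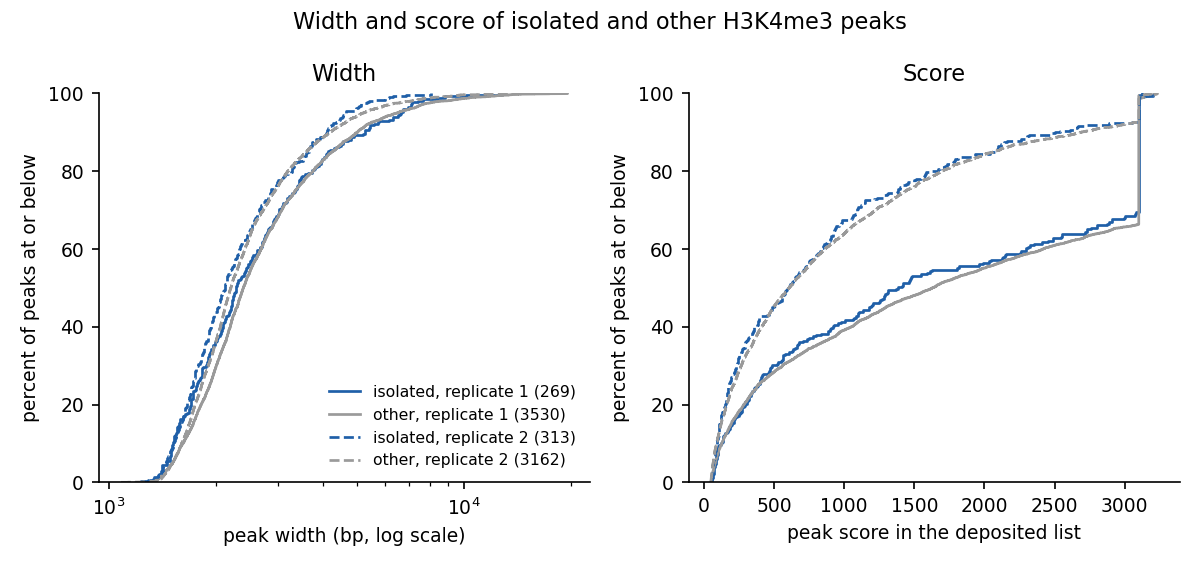
Cumulative share of peaks (y axis, percent) by width (left, bp, log scale) and by deposited score (right), for isolated peaks (blue) and other peaks (grey) in replicate 1 (solid) and replicate 2 (dashed). Within a replicate the curves of isolated and other peaks run close together, with median widths of 2283 and 2391 bp in replicate 1, and the vertical step on the right is the pile-up of scores at 3100.

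Width went in opposite directions in subdomains and gaps. Members in subdomains had a median width of 2185 bp, against 2278 bp for other subdomain peaks, and in replicate 2 the medians were 2059 and 2151 bp. Members in gaps had a median of 2608 bp, against 2438 bp for other gap peaks, and in replicate 2 the medians were 2301 and 2227 bp. Among gap classes the members of medium gaps were wide, with a median of 2962 bp, against 2425 bp for other peaks there, and 2742 against 2292 bp in replicate 2. These are medians of 25 and 28 isolated peaks. The other gap classes did not share this pattern in both lists. Members of large gaps had medians of 2243 bp, against 2546 bp for other peaks, and 2290 against 2287 bp in replicate 2. Members of small gaps had 2812 against 2691 bp, and 2223 against 2508 bp in replicate 2. Members of extra large gaps had 2521 against 2420 bp, and 2146 against 2184 bp in replicate 2.

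The scores of members lay within the range of other peaks. The ceiling of 3100 was reached by 82 members, or 30.5% (25.0 to 36.4%), against 33.6% (32.0 to 35.2%) of other peaks. In replicate 2 it was reached by 7.35% of isolated peaks and 7.34% of other peaks. The median score was 1385.5 in members and 1628.9 in other peaks in replicate 1, and 603.6 and 607.8 in replicate 2, so the lower median of replicate 1 was not seen at that size in replicate 2. Scores under 100, near the cutoff of the peak caller, were found in 8.18% (5.20 to 12.1%) of members and 7.39% (6.55 to 8.31%) of other peaks. Being far from other peaks was therefore not accompanied by a marked excess of low scores.

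In small gaps 6 of 19 members were at the ceiling, against 38 of 69 other peaks. In medium gaps 13 of 25 members were at the ceiling, against 119 of 327 other peaks, and in large gaps 3 of 21 members, against 106 of 331 other peaks. In subdomains 28.6% (21.4 to 36.6%) of members and 35.3% (32.3 to 38.4%) of other peaks were at the ceiling. The intervals of members and other peaks overlapped in each of these classes. Across the 269 members, score rose with width (Spearman's rho 0.62), as it did across other peaks (0.56), and neither score nor width followed the distance to the nearer neighbour (0.14 and 0.08). These correlations are across peaks of 1 library.

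Because replicate 2 was not used to choose the members, it was used to ask whether they were called again. A replicate 2 peak overlapped 232 of the 269 members by at least 1 bp, or 86.2% (81.5 to 90.1%), against 86.1% (84.9 to 87.2%) of other peaks, and 86.2% of all replicate 1 peaks. The difference of 0.126 percentage points, and that of 0.483 when replicate 2 peaks were looked up in replicate 1 averaged 0.305 ± 0.252 (SD, n = 2) and were small beside the interval of the members' share. No difference between isolated and other peaks in being called again was resolved by these lists.

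The overlap followed the score in both isolated and other peaks. All 158 members with a score of 1000 or more were overlapped by replicate 2. So were 962 of 963 other peaks scoring 1000 to 3100 and all 1186 other peaks scoring 3100 or more. The share was 68 of 89, or 76.4% (66.2 to 84.8%), for members scoring 100 to 1000, against 75.1% (72.4 to 77.6%) of other peaks in that range. Under 100 it was 6 of 22 members, or 27.3% (10.7 to 50.2%), against 19.5% (14.9 to 24.9%) of other peaks. By location, 83.0% (75.9 to 88.7%) of subdomain members and 90.2% (83.4 to 94.8%) of gap members had a counterpart, against 85.1% and 86.5% of other peaks.

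The 37 members without a replicate 2 peak were narrow and low-scoring. Their median width was 1505 bp, against 2433 bp for the members with a counterpart, and their scores ranged from 51.1 to 367.3, with a median of 103. Of the 37, 25 were in subdomains, or 67.6% (50.2 to 82.0%). The share was 52.6% (45.9 to 59.2%) of the members with a counterpart, whose interval overlaps. It was 32.6% of all replicate 1 peaks without a counterpart. The highest score among them belonged to a peak in the centre of chromosome V from 11443674 to 11446411, at 367.34. It was followed by a small-gap member on chromosome V from 6838342 to 6839867, at 354.56, and by subdomain members on chromosome II from 14101570 to 14103074, at 320.43, and on chromosome III from 10159443 to 10162175, at 274.19. The fifth, at 252.53, was in the centre of X from 12932775 to 12935379. For 35 of the 37, replicate 2 had no peak within 30000 bp either. That count largely follows from the choice, because 97.3% of replicate 2 peaks overlapped a replicate 1 peak.

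Members were mostly isolated in replicate 2 as well, which largely follows from the choice. Of all replicate 2 peaks, 97.3% overlapped a replicate 1 peak, and members have no other replicate 1 peak within 30000 bp. Replicate 2 could therefore add few neighbours, and the shares below are a description. Of the 232 overlapped members, 211, or 90.9% (86.5 to 94.3%), had a counterpart that was isolated by the same rule applied to replicate 2. This compares with 95 of 3040 other overlapped peaks, or 3.12% (2.54 to 3.81%), and with 8.03% of all replicate 1 peaks, counted over peaks with and without a counterpart. The other 21 fell into 2 kinds. For 11 members 2 replicate 2 peaks overlapped the member, so that the pieces were neighbours of each other. These 11 members were at least 4716 bp wide. For 10 members replicate 2 had a further peak within 30000 bp. Of all 269 members, 257, or 95.5%, were at least 30000 bp from every peak of either list other than their own counterpart.

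**Figure D5:**
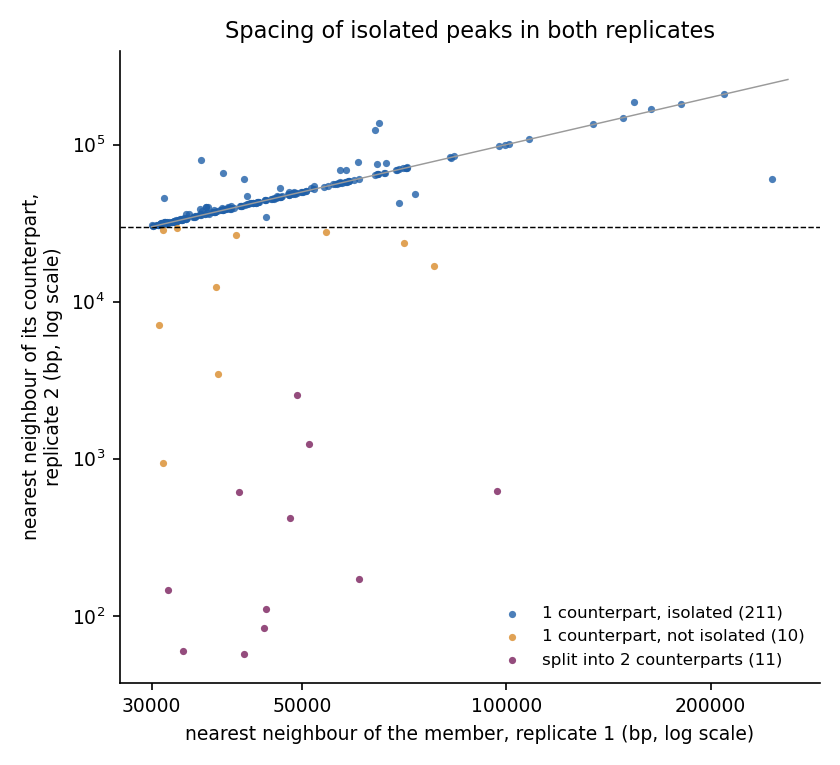
Distance to the nearer neighbour for the 232 members with a replicate 2 counterpart, in replicate 1 (x axis, bp, log scale) and for the counterpart in replicate 2 (y axis, bp, log scale). Blue points are the 211 whose counterpart was isolated, orange the 10 with a further replicate 2 peak within 30000 bp and purple the 11 that replicate 2 divided in 2, and the dashed line is 30000 bp. The grey line marks equal distances, and 176 of the 221 members with a single counterpart differ from it by at most 1000 bp.

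In the other direction, 211 of the 313 isolated peaks of replicate 2, or 67.4%, were overlapped by a member, whereas 78.4% of the 269 members were overlapped by an isolated replicate 2 peak. Of the remaining replicate 2 peaks, 95 were overlapped by a replicate 1 peak that was not isolated and 7 by none. For 88 of those 95, every adjacent replicate 1 peak within 30000 bp had no counterpart in replicate 2. That count largely follows from the choice, because an isolated replicate 2 peak has no other replicate 2 peak within 30000 bp. At these 95 places replicate 1 listed a further peak within 30000 bp, so membership depends on which neighbouring peaks a list holds. The scores of those neighbours were not examined.

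The members with a single counterpart were placed closely alike by the 2 lists. Over the 221 such pairs the midpoints were a median of 45 bp apart, against 61 bp over 2931 pairs of other peaks. Replicate 2 peaks were narrower in 82.8% of the member pairs and in 87.7% of the other pairs, by medians of 139 and 187 bp. The distance to the nearer neighbour differed by at most 1000 bp in 176 of the 221 pairs. Across the pairs, Spearman's rho between replicates was 0.92 for scores, 0.89 for widths and 0.89 for the distance to the nearer neighbour, and 0.92 and 0.89 for scores and widths across the other pairs. These points share libraries, and scores share the ceiling. The highest replicate 2 scores of members were 3215.82 on chromosome II from 4373869 to 4378049, in a medium gap, 3200.06 on chromosome V from 19188862 to 19191362, in a subdomain, and 3144.01 in the centre of chromosome I. All 3 had a replicate 1 score of 3100, and the scores that followed in replicate 2 were tied at 3100. The order of scores from 3100 up is not read as strength. The member with the highest replicate 1 score, 3126.06 at percentile 98.98, scored 827.40 in replicate 2, at percentile 58.82. It was picked after its values were seen.

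Some isolated peaks were consecutive, which is a description from the distances that the rule used. A peak next to a member already has a long stretch on that side and needs only another to be a member. Of the 269 members, 149 had another member as the adjacent peak, in 44 runs of 2 and 18 runs of 3 to 5 consecutive members, and 120 stood between peaks that were not isolated. The 18 longer runs held 61 members. All were on arms except a run of 4 in the centre of X from 6447922 to 6690709. The longest run was on the left arm of X, with 5 members from 1527080 to 1998860. Their widths from left to right were 2666, 1499, 4139, 1517 and 3983 bp, and 4 of the 5 had a counterpart in replicate 2. The exception, from 1960628 to 1962144, had a score of 102.34, and a replicate 2 peak lay 2032 bp from it.

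The run with the most uneven widths was on the left arm of chromosome V from 2876681 to 3455245, where 3 members were the only replicate 1 peaks in 0.579 Mb. Their widths were 1539, 1803 and 12762 bp and their replicate 1 scores 625.21, 470.70 and 671.13. All 3 were called in replicate 2. On the right arm of chromosome IV, 3 members from 15560347 to 16171427 were the only replicate 1 peaks in 0.611 Mb, with scores between 958.45 and 3100. A further run of 4, on the right arm of chromosome V from 18688855 to 18896158, had all its midpoints in subdomains. Its widths were 1964, 3178, 1557 and 2090 bp, and each of the 4 had an isolated counterpart in replicate 2.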

How the data were processed

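H3K4me3 was measured by ChIP-seq in N2 mixed-stage embryos, in 2 replicates, and the 2 inputs were left out here. The authors deposited a peak list per replicate, called separately with MACS at a p-value cutoff of 1e-05, and the deposited score is -log10 of the p-value, multiplied by 10. The sample labels name BWA as aligner, whereas the study's methods name MAQ and ce4 for its H3K4me3 reads. The MACS version is not given in the sources used here. Any signal under the cutoff is not seen, and peaks that a caller merges or splits change distances.

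Starts were converted to coordinates counted from 1. Distances are the bases between neighbouring peaks, and no peaks of a list overlapped each other. Midpoints were placed in the study's LEM-2 subdomains, gaps, arms and centres, all of which the study derived from LEM-2 signal. Replicate overlap needed 1 bp. The members and comparisons were chosen with earlier results of these data known. Peaks named are the most remote, the 5 widest, those with the highest replicate 2 scores, those next to the cutoff, runs of 3 or more (some of them), the 5 farthest inside a subdomain and the 5 highest-scoring without a replicate 2 peak. The rule and overlap code was tested on simulated data. Tools were pandas 2.3.3 and numpy 2.4.6 under Python 3.11.15, with scipy 1.17.1 for the intervals and matplotlib 3.10.9 for the plots. Alternatives were other cutoffs, score and overlap minimums, autosomes alone, other territories and, for results from a single list, each replicate left out.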

Additional observations from a re-analysis of the deposited data

Results flagged for a closer look

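The difference in median width between isolated and other peaks had opposite signs in LEM-2 subdomains and in gaps, in both replicates. Isolated minus other was -93.0 bp in subdomains in replicate 1 and -92.0 bp in replicate 2. In gaps it was 170.0 bp in replicate 1 and 74.0 bp in replicate 2. Among gap classes, only medium gaps had wider isolated peaks in both replicates. Large gaps had medians of 2243 bp for isolated and 2546 bp for other peaks in replicate 1. All these differences were small beside the spread among peaks, and the difference between subdomains and gaps was not tested.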

How the results depend on the processing

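The arm, subdomain and width differences were computed in replicate 1, so leaving out replicate 2 returned them unchanged. Leaving out replicate 1 gave the value of replicate 2. The excess of isolated peaks on arms, 31.3 percentage points, was 25.7 to 31.3 when either replicate was left out. It was 20.9 with a cutoff of 20000 bp, and 26.8 among replicate 1 peaks overlapped by replicate 2. The excess in subdomains, 26.7 points, was 24.05 to 26.7 when either replicate was left out, 22.3 and 30.7 with cutoffs of 20000 and 50000 bp, 22.7 among overlapped peaks, 30.1 on autosomes, 30.2 when any overlap with a subdomain counted, and 11.7 outside extra large gaps. The width difference, -108 bp, was -108 to -83.0 bp when either replicate was left out, -86.5 and -131 bp at the other cutoffs, -85.0 bp among peaks scoring at least 100 and -132 bp on autosomes. On X alone it was -8.00 bp in replicate 1 and 94.0 bp in replicate 2. The difference in replicate overlap, 0.126 points, was 0.483 when replicate 2 peaks were looked up in replicate 1. It was 0.546 and 1.91 at the other cutoffs and 0.435 on autosomes. It changed sign to -0.738 among peaks scoring at least 100 and to -1.07 with a reciprocal overlap of 50%, and the cause was not tested. The share of overlapped isolated peaks with an isolated counterpart, 90.9%, was 69.0% when isolated replicate 2 peaks were looked up in replicate 1. Both of these results need both lists, so no replicate could be left out of them. No paired analysis was possible because the labels' replicate numbers pair each list only with an input, which was not used, and the results come from no test. A spread from 2 lists is itself uncertain, and the lists carry no read counts that would give the depth.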
